A study of Homo sapiens with 14 samples.

Results

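The 80 autosomal genes with names of cytosolic ribosomal proteins were followed here as a set of mostly constitutive promoters, with 7 paralogs among them, some of which are known from single tissues. They were taken by name from the 19111 autosomal protein-coding genes of GENCODE release 44 (hg38) as RPL or RPS followed by a number, with RPLP0, RPLP1, RPLP2 and RPSA. Of these, 49 carry a large-subunit name and 31 a small-subunit name, and 6 genes of matching name on X or Y were left out. The remaining 19031 autosomal protein-coding genes served for comparison. A promoter was counted as bound where any base of a peak lay within 1 kb of any annotated transcript start of the gene.

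The chromatin came from the established hESC line WIBR3 (human embryonic stem cells), grown on mouse feeders as primed cells in conventional medium or as naïve cells in 5i/L/A. Chromatin immunoprecipitation and sequencing (ChIP-seq) had been carried out for BRG1 (SMARCA4) and BRM (SMARCA2), the alternative ATPases of the BAF chromatin remodelling complex, for its scaffold subunit BAF155 (SMARCC1) and for the pluripotency factor SOX2. There were 7 peak lists in use, of naïve BRG1, BAF155, BRM and SOX2 and of primed BRG1, BAF155 and SOX2. Each comes from 1 line and, for the BAF subunits, from 1 library per state, so there is no spread between cultures and no test of any difference. The 95% intervals below are exact Clopper-Pearson intervals and cover counting error alone.

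Ribosomal proteins are made in equal amounts for the large and the small subunit, and their genes are among the most strongly transcribed in growing cells. Their promoters usually lie in CpG-rich sequence, and transcription starts at a C inside a run of pyrimidines, the 5′ terminal oligopyrimidine (TOP) motif, through which the mTOR pathway controls translation of these mRNAs. BAF complexes use ATP to slide or evict nucleosomes at promoters and enhancers.

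The sequences below were read from hg38 and run from 30 bases before to 20 bases from the canonical start of the gene, 5′ to 3′ on the gene's own strand. They show the start as it is in genes that the results return to. Capitals mark the longest pyrimidine run that reaches within 5 bp of the start. RPS19, RPL5 and RPL11 are the genes most often discussed in Diamond-Blackfan anaemia, RPLP0 had high primed folds, RPS16 had peaks in the naïve lists alone, and RPL34 had none.
RPS19, chr19:41860225-41860274, plus strand: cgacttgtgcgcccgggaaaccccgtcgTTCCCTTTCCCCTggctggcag
RPL5, chr1:92832010-92832059, plus strand: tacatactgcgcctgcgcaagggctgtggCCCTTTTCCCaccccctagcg
RPL11, chr1:23691776-23691825, plus strand: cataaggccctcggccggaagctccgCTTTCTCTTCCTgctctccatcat
RPLP0, chr12:120201092-120201141, minus strand: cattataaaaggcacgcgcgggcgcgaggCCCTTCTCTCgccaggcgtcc
RPS16, chr19:39435930-39435979, minus strand: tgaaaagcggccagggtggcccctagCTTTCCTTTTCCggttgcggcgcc
RPL34, chr4:108620546-108620595, plus strand: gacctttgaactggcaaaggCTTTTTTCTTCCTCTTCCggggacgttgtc

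The next 3 belong to paralogs, which have ribosomal protein names and a closely related partner gene in the family. RPS27L and RPL10L show that a member by name need not have the TOP-like start, whereas RPL22L1 has one.
RPL22L1, chr3:170870176-170870225, minus strand: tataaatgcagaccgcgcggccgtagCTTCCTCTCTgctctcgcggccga
RPS27L, chr15:63157458-63157507, minus strand: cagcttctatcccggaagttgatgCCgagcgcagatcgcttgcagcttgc
RPL10L, chr14:46651762-46651811, minus strand: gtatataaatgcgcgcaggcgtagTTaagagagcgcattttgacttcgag

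A run of at least 8 pyrimidines within 5 bp of the canonical start was found in 63 of the 80 genes (78.8%), compared with 10.9% of all other genes. The median run was 11 bases in ribosomal protein genes and 4 bases in all others. Of the 7 paralogs on the fixed list, 1 had such a run, namely RPL22L1. The promoters were CpG-rich in 74 of 80 genes (92.5%) against 65.4% of the others, where CpG-rich means a GC content of at least 50% and an observed to expected CpG ratio of at least 0.6 in the 500 bp on either side. Since peaks of BAF subunits were more frequent at CpG-rich starts, the 12440 other genes with a CpG-rich start serve below as a further comparison.

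Between 250 bases before and 50 after the start, on both strands, CCGGAAG (an ETS-type site) was present in 35.0% of the ribosomal protein genes and in 14.1% of all others. AAGATGG, the core of the YY1 site, was present in 18.8% and 6.29%. In the CpG-rich others these strings were at 19.2% and 7.03%. They were not particular to the set, as 78 mitochondrial ribosomal protein genes had them at 41.0% and 32.1%. In 18 other genes with TOP mRNAs they were at 22.2% and 44.4%. GGGCGG, the GC box, was present in 57.5% and 61.7%, but in 80.8% of the other genes with a CpG-rich start. CCAAT was present in 32.5% and 35.8%, and in 35.0% of those CpG-rich genes. Each of the 2 SOX-type strings, CATTGT and CTTTGT, was found in 3.75% of ribosomal protein genes, compared with 7.52% and 12.2% of the others. In the CpG-rich others they were found in 4.76% and 8.33%. TATAAA was found in 10.0% and 9.74%, but in 4.48% of the CpG-rich others. CACGTG, an E box, was found in 7.5% and 8.69%, and in 10.5% of the CpG-rich others. A match of letters describes the sequence and not a bound site.

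In naïve cells, BRG1 peaks were present at 48 of the 80 promoters (60.0%, interval 48.4 to 70.8%), compared with 68.0% of all other genes. BAF155 peaks were present at 56 (70.0%), compared with 68.4%. BRM, the other ATPase, had a peak at 6 promoters only (7.5%, interval 2.8 to 15.6%), compared with 23.3% of all other genes. Hence the naïve promoters of ribosomal protein genes had BAF155 about as often as other genes and BRM less often by more than the counting interval, while the lower share of BRG1 lay within it.

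In primed cells, BAF155 peaks were present at 71 promoters (88.8%, interval 79.7 to 94.7%), compared with 73.9% of all other genes, while BRG1 peaks were present at 18 (22.5%), compared with 34.6%. At each of the 18 promoters with primed BRG1 there was also a primed BAF155 peak (BRG1 alone at none, against 0.0631% of others), and 53 promoters (66.2%, against 39.3% of others) had BAF155 with no BRG1 peak. Neither subunit was found in primed cells at 9 promoters (11.2%, against 26.1%). SOX2 peaks were almost lacking. A naïve SOX2 peak was present at 1 promoter (1.25%, against 0.667% of others) and a primed SOX2 peak at 1 (1.25%, against 5.67%).

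Against the other genes with a CpG-rich start, all 4 BRG1 and BAF155 shares were lower for ribosomal protein genes. The CpG-rich genes had shares of 85.7% for naïve BRG1, 86.1% for naïve BAF155, 29.0% for naïve BRM, 46.6% for primed BRG1 and 93.8% for primed BAF155. The primed BAF155 share of the 80 genes was thus no longer above that of the comparison genes. The difference lay within the counting interval, as did that of the 74 CpG-rich ribosomal protein genes taken alone (90.5%, interval 81.5 to 96.1%). The searched windows were longer in the CpG-rich others, with a median of 6038 bp against 3864 bp in the 80 genes. With 1 start per gene, a setting chosen after the values were seen, the 74 had 60.8% against 83.3% for naïve BRG1. They had 63.5% against 83.4% for naïve BAF155 and 8.11% against 23.6% for naïve BRM. For primed BRG1 they had 20.3% against 43.3%, and for primed BAF155 86.5% against 93.0%. Primed BAF155 was also less frequent than in all other genes when peaks were restricted to a −log10 q of at least 3, with 25.0% of ribosomal protein genes and 41.8% of all others. The naïve BAF155 excess of 1.6 percentage points turned over in several settings, and naïve BRG1, naïve BRM and primed BRG1 stayed lower in all settings.

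**Figure D1:**
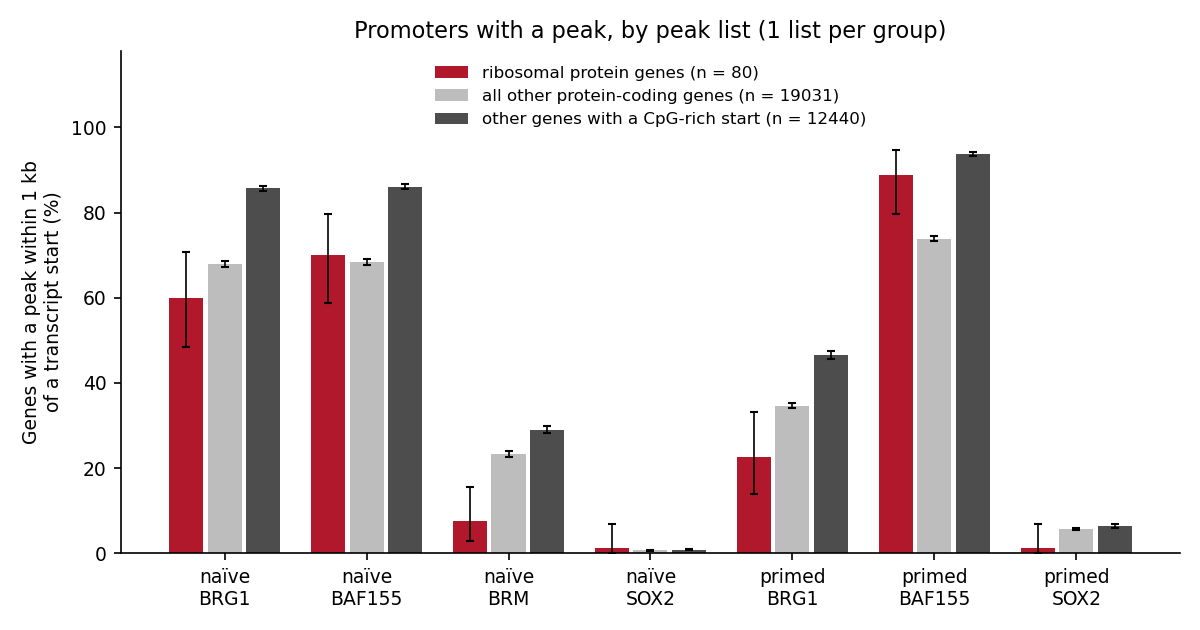
Bars give the percentage of genes with a peak within 1 kb of a transcript start in each of the 7 lists, for the ribosomal protein genes, all other genes and other genes with a CpG-rich start, with exact 95% intervals for counting error. Primed BAF155 is the list in which the ribosomal protein genes stand clearly above all other genes (88.8% against 73.9%), and naïve BRM the one in which they stand furthest below in proportion among the BAF lists (7.5% against 23.3%).

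The length of the list weighed on the comparison of states. The naïve BRG1 list held 57884 peaks and the primed one 15611. When the naïve list was cut to its 15611 peaks of highest fold, naïve BRG1 was left at 7.5% of ribosomal protein gene promoters (others 22.7%), below the primed share of 22.5%. The fall in BRG1 from naïve to primed cells therefore depended on list length. The BAF155 lists were close in length, with 62338 and 58352 peaks, and at equal length naïve BAF155 was present at 58.8% of the promoters, still below the primed 88.8%.

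Taking BRG1 and BAF155 together, 57 of the 80 genes had a BAF peak in both states (71.2%, against 67.7% of all other genes). A peak in primed cells alone was found for 14 (17.5%, against 6.21%), in naïve cells alone for 6 (7.5%, against 6.39%) and in neither state for 3 (3.75%, against 19.7%). For BAF155 on its own, 21 genes had a peak only in primed cells (26.2%, against 10.5%) and 6 only in naïve cells (7.5%, against 5.01%). All 4 lists of BRG1 and BAF155 had a peak at 12 genes (15.0%, against 31.7%). BRG1 in both states was found at 13 genes (16.2%, against 32.8%), in naïve cells alone at 35 (43.8%, against 35.1%), in primed cells alone at 5 (6.25%, against 1.8%) and in neither state at 27 (33.8%, against 30.2%). BAF155 was in both states at 50 genes (62.5%, against 63.4%) and in neither at 3 (3.75%, against 21.1%).

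Within naïve cells, 41 genes had both subunits (51.2%, against 62.2% of others), 7 had BRG1 without BAF155 (8.75%, against 5.72%), 15 had BAF155 without BRG1 (18.8%, against 6.14%) and 17 had neither (21.2%, against 25.9%). The lists also overlapped less at these genes. Of the 56 with naïve BAF155, 73.2% had naïve BRG1, compared with 91.0% of the other genes with naïve BAF155. In the same 56, naïve BRM was present in 10.7%, compared with 33.8%. Of the 71 with primed BAF155, 25.4% had primed BRG1, compared with 46.8%. The same shares in CpG-rich other genes were 92.6%, 33.5% and 49.7%.

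The 3 genes with no BRG1 or BAF155 peak in either state were RPL10L, RPL32 and RPL34. RPL10L is a paralog of RPL10 expressed in testis, and its nearest naïve BAF155 peak lay 169 kb from a start. RPL32 and RPL34 encode standard large-subunit proteins. RPL34 had the nearest BAF155 peak 27.8 kb away in naïve and 27.5 kb away in primed cells. RPL32 had one 4.28 kb away in naïve cells and 26.4 kb away in primed cells. RPL34 has the longest of the pyrimidine runs printed above, so a TOP-like start did not go with a peak there.

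Among the genes with peaks in primed cells alone, RPL5, which binds 5S rRNA together with RPL11, had both subunits. Its primed BRG1 peak (chr1:92831932-92832390) had a fold of 3.53 over input and its primed BAF155 peak (chr1:92831851-92832657) a fold of 3.47, and both covered the start. RPL38, a large-subunit protein linked to translation of Hox mRNAs, had a primed BRG1 peak of only 133 bp with a fold of 3.95 and a BAF155 peak of 1903 bp with a fold of 3.21. RPL21, RPL9, RPL35A, RPS12 and RPL4 had primed BAF155 without BRG1, with folds of 3.00, 3.15, 2.87, 2.85 and 2.86. In all 5 the peak covered the canonical start and was between 847 and 1363 bp wide. The other 7 genes of this class had between 435 and 813 bp of peak in sum.

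The genes with peaks in naïve cells alone included RPS16, RPS9, RPL29, RPL3L and RPL19. RPS16 had naïve folds of 2.87 for BRG1 and 3.14 for BAF155, but its BAF155 peak (chr19:39436548-39438971) lay upstream with its midpoint 1810 bp before the start. RPS16 shares this region with SUPT5H, a transcription elongation factor gene with a start within 1 kb. RPS9 was different, as its naïve BRG1 peak (fold 2.60) and BAF155 peak (fold 2.63) both covered the start. RPL3L, the muscle paralog of RPL3, had naïve folds of 2.59 and 2.42. These peaks lay within 1 kb of an upstream start, with midpoints 4055 and 3610 bp before the canonical one.

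**Figure D2:**
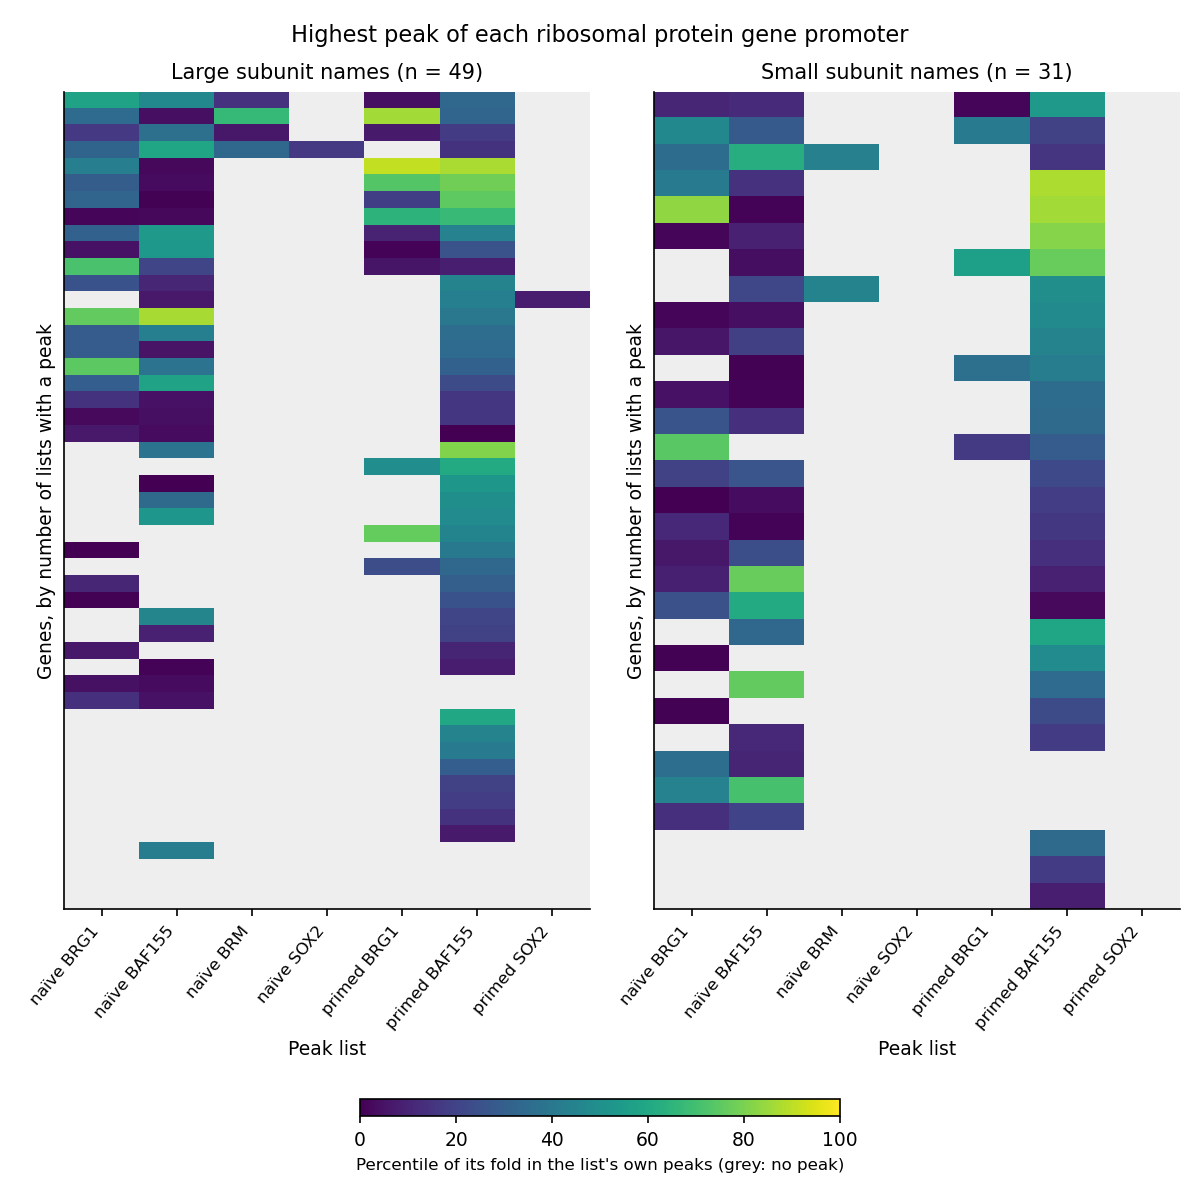
Each row is 1 of the 80 genes, sorted within each subunit by the number of lists with a peak and then by the primed BAF155 rank, and each column is a peak list. The colour gives where the fold of the gene's highest promoter peak ranks among all peaks of that list (0 to 100, in percentiles), and grey marks no peak. The primed BAF155 column is filled for 71 genes, the naïve BAF155 column for 56 and mostly dark, the naïve BRM column for 6, and the SOX2 columns for 1 each.

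By subunit, naïve BAF155 was present at 31 of 49 large-subunit genes (63.3%, interval 48.3 to 76.6%) and at 25 of 31 small-subunit genes (80.6%, interval 62.5 to 92.5%). Naïve BRG1 was at 53.1% and 71.0%. Primed BAF155 was at 87.8% and 90.3%, and primed BRG1 at 26.5% and 16.1%. The intervals of the subunits overlapped in each of these lists. Both subunits thus showed the same order of lists, with primed BAF155 highest.

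The 6 genes with naïve BRM were RPL7A, RPS21, RPS27L, RPL39L, RPL7 and RPL26, in falling order of fold from 3.49 to 2.75. RPS27L and RPL39L are paralogs rather than standard subunits, the former a target of p53. Without the 7 paralogs, naïve BRM was present at 4 of 73 genes (5.48%). RPL39L had naïve BRM (fold 3.10) and BAF155 (fold 2.98) over its canonical start. At the other members of this group the BRM peak lay upstream of the start, by 1042 bp at its midpoint in RPL7A, 884 bp in RPS21, 1457 bp in RPL7 and 488 bp in RPL26, with RPS27L as the exception at 48 bp downstream.

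The paralogs varied as widely as the rest. RPL22L1 had peaks in all 4 lists of BRG1 and BAF155, with folds of 2.35 and 2.35 in naïve and 3.73 and 3.60 in primed cells. RPL26L1 had BAF155 alone, with a fold of 2.75 in naïve and 3.28 in primed cells. RPL7L1 had naïve BRG1 (fold 2.49) and primed BAF155 (fold 2.75). RPS27L had naïve BRG1 (2.80), BAF155 (3.02) and BRM (3.20) and primed BAF155 (2.81). RPL3L had naïve peaks only, and RPL10L none.

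The single naïve SOX2 peak belonged to RPL39L, near an upstream start, with its midpoint 41676 bp before the canonical one (chr3:187181068-187181277) and a fold of 5.57 at percentile 16.5 of its list. The single primed SOX2 peak belonged to RPL23A (chr17:28719546-28719898), with a fold of 4.46 at percentile 7.51 and its midpoint 263 bp upstream of the start. RPL23A carries no long pyrimidine run at its canonical start. Neither gene had a SOX2 peak in the other state. With −log10 q of at least 3, no primed SOX2 peak remained at a ribosomal protein gene, whereas 5.1% of other genes kept one.

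Where peaks were present, they were weak for their list. The fold of the highest promoter peak had a median of 2.56 for naïve BAF155 (56 genes, range 2.20 to 3.50), compared with 2.92 for other genes with a peak, which placed the median ribosomal protein gene at percentile 13.9 of its list and the median other gene at percentile 53.1. Naïve BRG1 had 2.64 against 2.96, at percentiles 18.0 and 53.2. In primed cells BAF155 had 3.05 against 3.35, at percentiles 33.6 and 54.3, and BRG1 had 3.35 against 3.47, at percentiles 30.2 and 42.8. For naïve BRM the 6 genes had 3.15 against 3.24. Folds were set side by side within a list only, because the lists differ in length and in the library behind them.

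Among the highest naïve BAF155 folds were those of RPL22 (3.50), RPS18 (3.23), RPS16 (3.14) and RPS27L (3.02). In RPL22 the peak lay at an alternative start, with its midpoint 9418 bp upstream of the canonical one. In RPS18 the peak (chr6:33276854-33277812) lay beyond the annotated 3′ end of the gene at 33276511. Its midpoint was 5258 bp downstream of the canonical start, and it was counted because it reached within 1 kb of an alternative start. The lowest were RPL30 (2.20), RPS3 (2.23) and RPL27 (2.24), all under the first percentile of the list. RPL27 nevertheless had a primed BAF155 fold of 3.79 at percentile 75.1. Of these 4 genes with high folds, only RPS27L had the peak of highest fold over its canonical start. RPL22 had another naïve BAF155 peak, of lower fold, over its canonical start.

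In primed BAF155, RPLP0 (4.32), RPSA (4.25), RPS20 (4.02) and RPL3 (3.99) were among the genes of highest fold. RPLP0 encodes the base of the P stalk, where elongation factors dock, and RPSA a small-subunit protein also known as the laminin receptor precursor. RPLP0 had a primed BRG1 fold of 4.55 as well, at percentile 90.7, in a peak of 435 bp over the start (chr12:120200936-120201370), while its highest naïve BAF155 peak had a fold of 2.34 at percentile 2.12. The lowest primed BAF155 folds were those of RPLP2 (2.36) and RPS19 (2.59).

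RPS19, RPL5 and RPL11 did not share a pattern. RPS19 had naïve BRG1 (fold 2.71), naïve BAF155 (3.01) and primed BAF155 (2.59), all over the start. RPL5 had primed peaks alone, as given above. RPL11 had naïve BAF155 with a fold of 2.92 in a peak of 1827 bp whose midpoint was 1148 bp upstream, and primed BAF155 with a fold of 3.25 in a peak of 246 bp over the start.

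For the 50 genes with BAF155 in both states, the median percentile was 13.9 in the naïve and 35.0 in the primed list. The other 12058 genes with both had medians of 53.4 and 57.1. BRG1 went the other way, but its lists held 57884 and 15611 peaks, and a percentile is taken within its own list. Its shift therefore cannot be told apart from list length. For the 13 genes with BRG1 in both states the median percentile was 32.7 in the naïve and 17.1 in the primed list. The other 6248 genes with both had medians of 60.9 and 43.3.

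**Figure D3:**
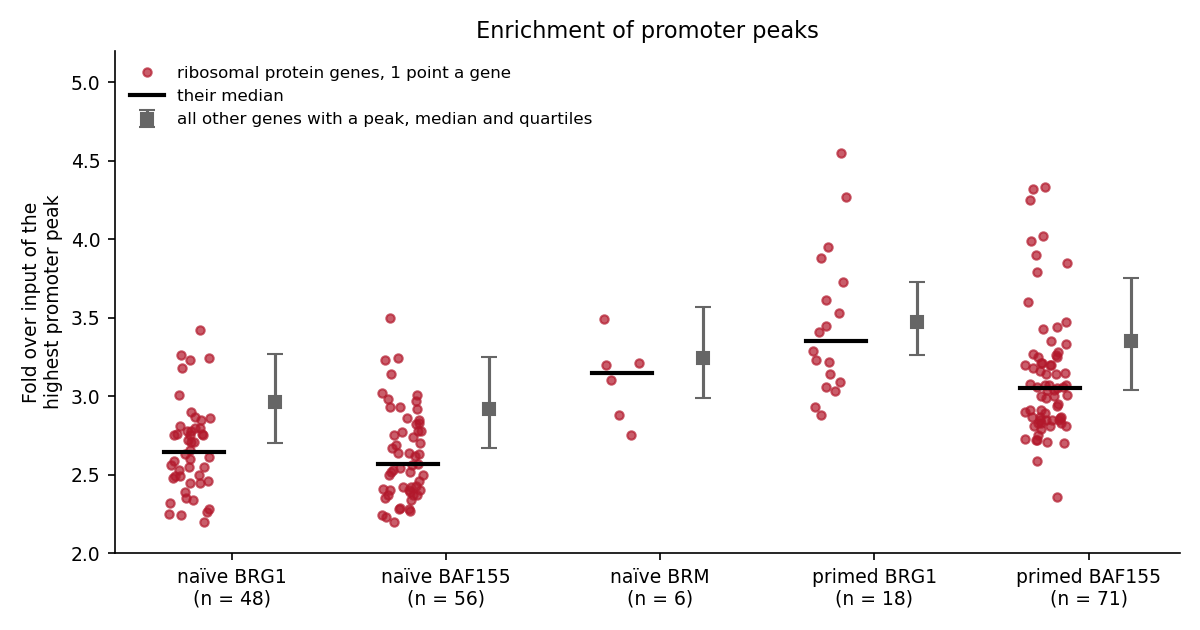
The fold over input of the highest promoter peak is plotted for each ribosomal protein gene with a peak (points, median as a bar) in 5 lists, beside the median and quartiles of all other genes with a peak. The axis starts at 2. In naïve BAF155 the median of 2.56 lies under the lower quartile of other genes, and in primed BAF155 the median of 3.05 lies close to it.

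Next, the position of the peaks was followed around the canonical start, in the direction of transcription. In naïve cells the BAF155 peaks of ribosomal protein genes lay mostly on the upstream side, and BRG1 peaks did so less. Naïve BAF155 covered the start of 21.2% of the 80 genes, compared with 47.1% of all other genes. Coverage was highest 350 bp upstream, at 37.5%, whereas that of other genes was highest 50 bp downstream, at 47.4%. At 500 bp downstream it had fallen to 2.5%, compared with 26.4%, although at 500 bp upstream it was above that of other genes (32.5% against 25.1%). Naïve BRG1 was also highest upstream, at 40.0% 250 bp before the start, but still covered 28.7% of the starts (others 46.7%). Its coverage fell beyond the start, to 11.2% at 250 bp downstream (others 38.4%) and 5.0% at 500 bp (others 26.4%).

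In primed cells, BAF155 covered the start itself in 72.5% of the genes, compared with 62.9% of all others and 86.5% of CpG-rich others. The highest coverage, 76.2%, was at 100 bp downstream. At 500 bp downstream 40.0% of the ribosomal protein genes were covered, close to the 42.4% of all other genes. Primed BRG1 was sparse, with 8.75% of starts covered against 17.6%. Gene by gene, more bases within 1 kb of the start were covered by BAF155 in primed than in naïve cells for 56 genes, fewer for 18 and the same number for 6, with medians of 846 and 281 bp. Other genes moved the same way, with more bases covered in primed cells for 9696, fewer for 4479 and the same number for 4856, and medians of 762 and 447 bp.

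**Figure D4:**
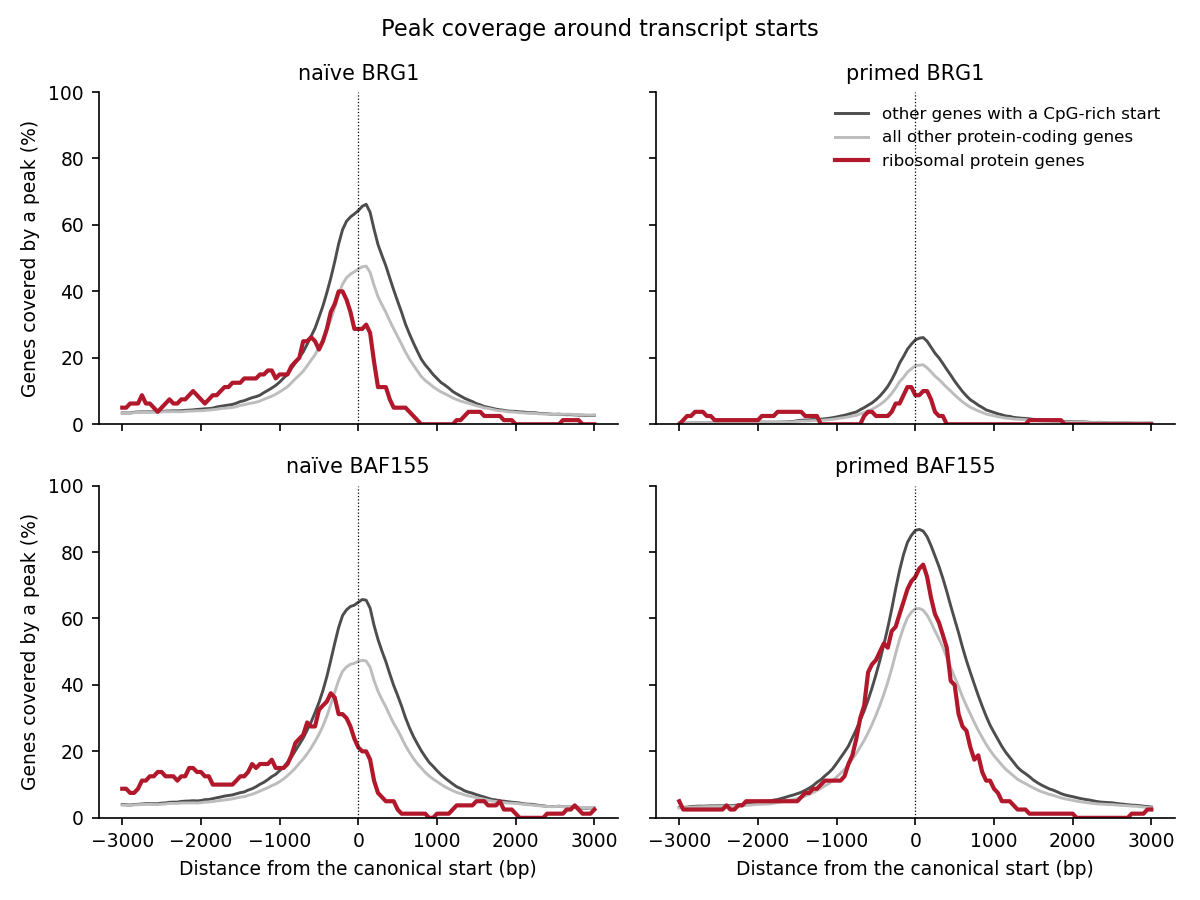
Lines give the percentage of genes covered by a peak at each distance from the canonical start (3 kb on either side, downstream positive), for the ribosomal protein genes, all other genes and other genes with a CpG-rich start. In both naïve panels the line of the ribosomal protein genes is highest upstream. For BAF155 it falls to 21.2% at the start and 2.5% at 500 bp downstream, for BRG1 it is 28.7% at the start and 5.0% at 500 bp downstream, and in primed BAF155 it is highest at 100 bp downstream.

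Counted per gene, 49 of the 80 had naïve BAF155 within 1 kb of the canonical start. In 32 of these (65.3%) the peaks lay entirely upstream, in 17 (34.7%) they covered the start, and in none did they lie downstream only. Among the 11991 other genes with such a peak, 11.8% had it upstream only, 74.8% over the start and 11.0% downstream only. At least 250 bp downstream of the start were covered in 12.2% of the 49, compared with 63.6% of the others. For naïve BRG1, 45.7% of 46 genes had peaks upstream only (others 10.7%) and 23 of the 46 (50.0%) had them over the start (others 74.4%). In primed BAF155, 6 of 68 genes (8.82%) had them upstream only (others 3.89%) and 85.3% over the start (others 89.8%).

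The naïve BAF155 peaks of ribosomal protein genes were lower in fold and also narrower, with a median width of 609 bp against 792 bp in other genes. Position was therefore also read among peaks of like rank, a division made after the values were seen. Among genes whose highest naïve BAF155 peak ranked in the lowest 25 percentiles of the list, 20 of 32 ribosomal protein genes (62.5%) had peaks upstream only, compared with 16.9% of 3186 other genes and 16.1% of 2837 CpG-rich ones. Between percentiles 25 and 50 it was 9 of 9 compared with 10.5%, and above percentile 50 it was 3 of 8 compared with 9.78%. For naïve BRG1 the same 3 ranges gave 13 of 25 upstream only (others 16.5%), 4 of 15 (others 9.91%) and 4 of 6 (others 8.13%). In the middle range 11 of 15 BRG1 genes (73.3%) had peaks over the start, close to the 74.5% of other genes.

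Upstream peaks were also counted apart from neighbouring genes. Of the 80 genes, 23 (28.7%) have the start of another protein-coding gene there, compared with 23.6% of the other genes. For some members this other gene is an annotation that joins the member itself to a further gene, and so is not a separate neighbour. Among members with no such neighbour, 23 of 35 (65.7%) still had naïve BAF155 upstream only, compared with 10.5% of other genes with no such neighbour. Without the 7 paralogs it was 30 of 45 (66.7%). Ribosomal protein genes have many processed copies elsewhere in the genome. Within 1 kb of the canonical start, a median of 8.28% of the 32-base words occurred elsewhere in hg38 (range 0 to 32%), at 9.18% upstream and 5.00% downstream. The part of such copies in the peak calls was not tested.

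Other gene lists of protein synthesis and turnover were read the same way. Naïve BAF155 was upstream only in 10 of 18 ribosome assembly genes with a peak (55.6%), such as those for nucleolar and biogenesis factors, in 2 of 12 other genes with TOP mRNAs (16.7%), in 14 of 52 mitochondrial ribosomal protein genes (26.9%) and in 3 of 20 proteasome subunit genes (15.0%). The upstream position was thus shared with the assembly genes. Other genes with a pyrimidine run of 8 or more, a group also chosen after the values were seen, had naïve BAF155 upstream only in 10.9% of 1296 cases.

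**Figure D5:**
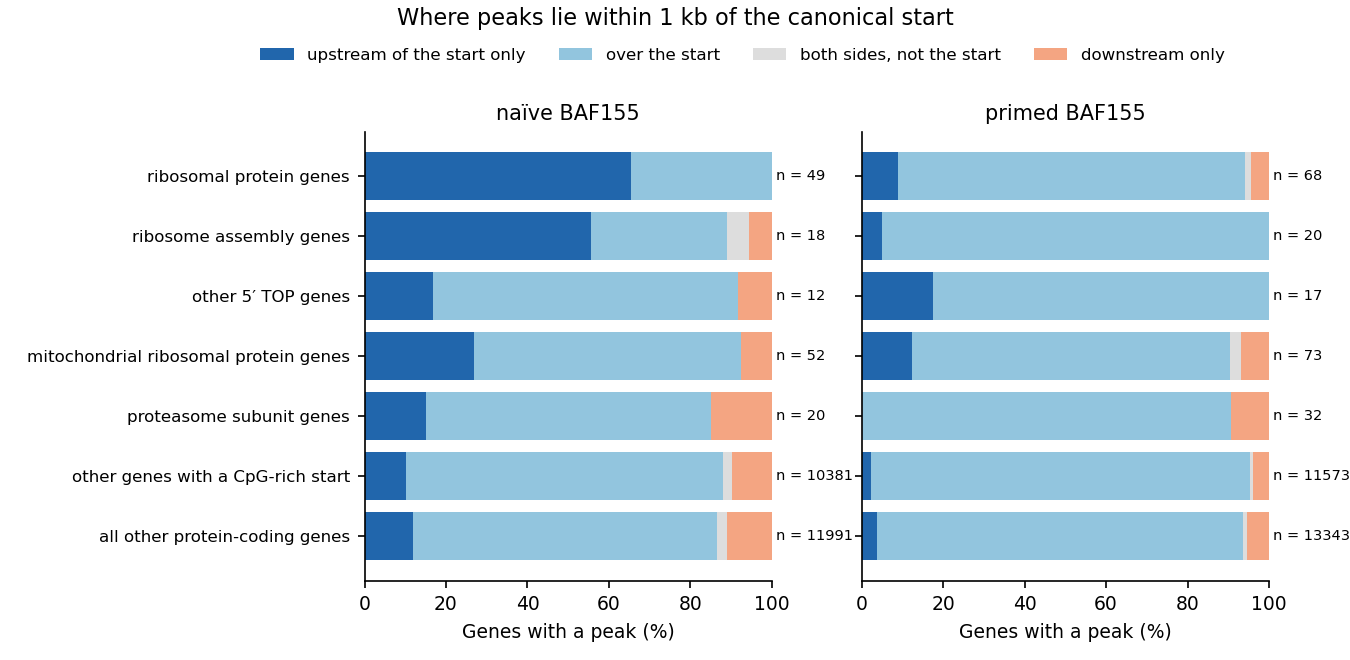
Stacked bars give, of genes with a BAF155 peak within 1 kb of the canonical start (n beside each bar), the percentage whose peaks lie upstream only, over the start, on both sides without the start, or downstream only, in naïve (left) and primed cells (right). Ribosomal protein genes (65.3%) and ribosome assembly genes (55.6%) have the longest upstream-only bars in naïve cells, against 11.8% of all other genes.

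The shares of bound promoters also placed these lists side by side. Naïve BAF155 was present at 67.9% of 78 mitochondrial ribosomal protein genes, 52.6% of 38 proteasome subunit genes, 83.3% of 18 other TOP genes and 83.3% of 24 assembly genes, around the 70.0% of the ribosomal protein genes. Primed BAF155 was present at 94.9% of the mitochondrial ribosomal protein genes, 86.8% of the proteasome genes, 18 of 18 other TOP genes and 83.3% of the assembly genes. Naïve BRM was at 17.9% (interval 10.2 to 28.3%), 13.2% (4.41 to 28.1%), 16.7% (3.58 to 41.4%) and 33.3% (15.6 to 55.3%). These values were above the 7.5% of the ribosomal protein genes (interval 2.8 to 15.6%). The intervals of the mitochondrial, proteasome and TOP lists overlapped it, so the low BRM share was not set apart from theirs. Primed BRG1 was at 17.9%, 26.3%, 27.8% and 16.7%. Primed BRG1 was thus as infrequent at the mitochondrial ribosomal protein and assembly genes as at the cytosolic ones.

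The cell states were checked at genes that mark them. Naïve BAF155 peaks were present at 10 of 10 naïve marker genes and at 6 of 8 primed ones, and primed BAF155 peaks at 5 of 10 and 8 of 8. Over all other genes the naïve share was 68.4% and the primed share 73.9%, so the 6 primed markers with naïve BAF155 lie near the general share.

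Sequence was compared between members with and without a peak. Those with naïve BAF155 had a median GC content of 58.5% and those without 56.2%, and the median pyrimidine run was 11 bases in both. GGGCGG was present in 51.8% of the 56 with and 70.8% of the 24 without, whereas in other genes it was present in 76.0% with and 30.8% without. For primed BAF155 it was present in 54.9% of the 71 with and 77.8% of the 9 without (other genes 74.7% and 24.9%). The other genes also differed in CpG content. Starts were CpG-rich in 82.3% of those with naïve BAF155 and 28.7% of those without (primed 83.0% and 15.6%). Among members they were CpG-rich in 94.6% and 87.5% (primed 94.4% and 77.8%). GGGCGG was not compared within CpG-rich genes. CCGGAAG was present in 32.1% with naïve BAF155 and 41.7% without (other genes 15.7% and 10.6%). For primed BRG1, CCGGAAG was present in 3 of 18 with (16.7%) and in 25 of 62 without (40.3%), compared with 12.1% and 15.2% of other genes. AAGATGG was present in 6 of 18 (33.3%) and 9 of 62 (14.5%), compared with 4.96% and 6.99%. These counts are small and were not tested.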

How the data were processed

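ChIP-seq peak lists of 10 of the 14 samples were used, and the 4 inputs had no list. Per the study's methods and the labels, the authors mapped reads to hg38 with Bowtie2 2.3.4, removed duplicates with SAMtools or PICARD and called peaks against input with MACS2, broad for BAF subunits (single-end reads) and narrow for SOX2 (paired-end reads, another facility). The deposited values are a fold enrichment over input (a linear ratio), −log10 of the p-value and q-value, and a score, all from the authors' peak caller. Fold and −log10 q described, ranked and filtered peaks, and the score was not used further. The lists hold no read counts and the study's library totals did not enter the analysis, so no correction for depth was made. A missing peak is a call under the authors' threshold. The 2 SOX2 lists of each state had identical coordinates and were counted as 1 sample. The primed BRM list (168 peaks) gives positions alone.

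Starts came from GENCODE 44 and sequences from hg38. Overlap meant at least 1 base. Peak values of a gene are those of its peak of highest fold. Positions used the canonical transcript. Motif strings were matched exactly on both strands. Genes named in the text were those with no BAF peak, the first 12 by summed peak width of those bound in 1 state, those with SOX2, the 5 highest and 3 lowest folds in naïve BAF155, primed BAF155 and naïve BRM, the paralogs, and RPS19, RPL5 and RPL11. RPL19, RPS29 and the neighbouring genes SUPT5H and RN7SL1 were named after values were seen. Some genes that this rule names are not reported here. Members, gene lists and comparisons were chosen with earlier results of these data known. Scripts used Python 3.11.15 with pandas 2.3.3 and SciPy 1.17.1 and were tested on simulated data. Alternatives were other windows (500 bp, 2 kb), 1 start per gene, peak midpoints, −log10 q of at least 3, equal list lengths, subsets of members, and CpG-rich comparison genes.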

Additional observations from a re-analysis of the deposited data

How the results depend on the processing

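No paired analysis was possible because both SOX2 libraries in each state came with the same peaks and every other group has 1 library. Without the first SOX2 library the values were 1.25% for naïve and 1.25% for primed SOX2, which identical lists fix in advance and which shows nothing about stability. With −log10 q of at least 3, the ribosomal protein genes had peaks at 7.5% for naïve BRG1, 12.5% for naïve BAF155, 0.0% for naïve BRM, 3.75% for primed BRG1, 25.0% for primed BAF155 and 0.0% for primed SOX2, against 23.7%, 26.0%, 4.89%, 6.16%, 41.8% and 5.1% of other genes. With lists of equal length they had 7.5% for naïve BRG1 (others 22.7%) and 0.0% for primed SOX2 (others 1.01%). BRG1 in both states was then at 1.25% of them, a share that was not computed for the other genes. Naïve SOX2 was at 0.0% with 1 start per gene (others 0.2%) and without the paralogs (others 0.667%). It was also at 0.0% with CpG-rich genes at 1 start per gene (others 0.217%) and among genes with 5 to 10 starts (others 0.802%). The last 2 settings were chosen after seeing the data. Each of these settings keeps fewer peaks, starts or genes by construction, and other causes were not tested. Primed BAF155 ranged from 85.0% to 90.4% in all settings but the q limit. Naïve BAF155 was below other genes with the 500 bp window (58.8% against 65.9%), peak midpoints (60.0% against 66.7%), 1 start per gene (61.3% against 63.0%), equal lists (58.8% against 66.8%), the q limit and CpG-rich comparison genes, was equal at 68.4% when members without shared promoters were set against all other genes (65.0% of other genes without shared promoters), and was above them in the rest. The lists were not set against read totals and each group has 1 library, so neither the spread between cultures nor binding below the peak threshold was measured.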

Other observations

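The primed BRM list, which is outside the comparisons above, held 168 peaks and touched 20 of the other 19031 genes (0.105%). At ribosomal protein genes it had a peak at 1, RPS29, a small-subunit zinc-finger protein gene. The region (chr14:49586596-49586872, hg38) lies in the annotated span of RPS29 and inside RN7SL1 (chr14:49586580-49586878), the gene for the RNA of the signal recognition particle, which has many near-identical copies in the genome. The list gives positions only, so the peak has no fold, and its cause was not tested.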
